A study of Mus musculus with 69 samples.

Results

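The genes described here are 10 airway secretory and mucin genes, Scgb1a1, Scgb3a1, Scgb3a2, Cyp2f2, Bpifa1, Reg3g, Muc5b, Muc5ac, Muc1 and Muc4. They were found through the transcript accessions of the array probes, which were matched to gene symbols, and a gene with several probes was given their median. Of the 10 genes, 9 had a matched probe and were tested together with all 17628 genes of the series, and Scgb3a2 was not analysed here. Muc4 had 3 probes, Muc1 and Muc5ac had 2 each, and the other genes had 1.

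Lung RNA from 69 female C57BL/6 mice was hybridised to 69 arrays of 2 colours, 1 mouse per array. The mice were 5 to 7 weeks old on arrival and were given 1 to 3 weeks to settle before a single dose into the trachea. The groups were NRCWE-001 (unmodified TiO2 nanoparticles) and NRCWE-002 (modified, positively charged TiO2 nanoparticles), each at 18, 54 and 162 µg, and the vehicle alone. All mice were of this strain and sex, and the controls had been instilled too. The vehicle was 2% serum in water according to the series' design text and water according to the control titles. Lungs were taken on day 1 and day 28, with 5 mice in each of 13 groups and 4 in the vehicle group of day 28. RNA came from a small frozen piece of each lung, so the share of airway in a piece can differ between mice. In each array the red channel (Cy5) held the mouse's RNA and the green channel (Cy3) a commercial mouse reference RNA. A level below is the log2 ratio of red to green. It orders samples for 1 gene and does not rank genes against each other, and dyes were not swapped. In such bulk RNA, fewer cells of a type and less RNA per cell cannot be told apart.

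The conducting airways of the lung are lined by club, goblet and ciliated cells, with glands beneath the lining of the largest airways. Club cells secrete secretoglobins and carry cytochrome P450 enzymes that metabolise inhaled chemicals. Goblet and gland cells release gel-forming mucins and antimicrobial proteins, while tethered mucins stay in the cell membrane. Mucus production can rise in inflamed airways, which is the background to asking whether instilled particles changed these genes.

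Across arrays, 61.4% to 87.8% of spots were well above background in the lung channel, and 0 spots were saturated. The arrays were spread over 18 slides and 12 scan days, and 14 of the 18 slides held arrays of 1 day only. Slides accounted for 54.1% of the within-group variance of the median gene. Values after slide was added to the model as a fixed block are therefore printed beside many of the tests. Tests were made with limma on 14 group means, and a gene was called at a Benjamini-Hochberg adjusted p under 0.05 over all 17628 genes.

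The widest feature of these genes was the difference between mice of the same group, vehicle mice included. Bpifa1 encodes a secreted antimicrobial protein of the upper airways. In the vehicle group of day 1 its level was 0.52, 0.53, 0.86, 1.06 and 5.13 in the 5 mice, and in that of day 28 it was 0.10, 0.67, 1.34 and 5.38. In each vehicle group 1 mouse stood far above the others, none of which exceeded 1.34. Over all 69 mice the level of Bpifa1 ran from 0.10 to 6.39 with a median of 2.07, a 78.2-fold span. The raw red intensity of its probe ran from 91 to 61007.

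Reg3g encodes a secreted lectin that binds bacteria. Its level was -0.04, 0.01, 0.18, 0.26 and 3.12 in the vehicle mice of day 1 and -0.08, 0.00, 0.07 and 3.24 in those of day 28. Muc5b is the main gel-forming mucin of the normal airway. It lay at 0.68, 0.81, 1.09, 1.34 and 3.79 on day 1 and at 0.89, 0.97, 1.25 and 5.04 on day 28. Scgb3a1, a secretoglobin of the larger airways, gave 2.32, 2.42, 2.46, 3.33 and 5.58 on day 1 and 1.68, 2.39, 2.97 and 5.69 on day 28. The same mouse was highest in all 4 genes, replicate 5 in the vehicle group of day 1 and replicate 1 in that of day 28.

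**Figure D1:**
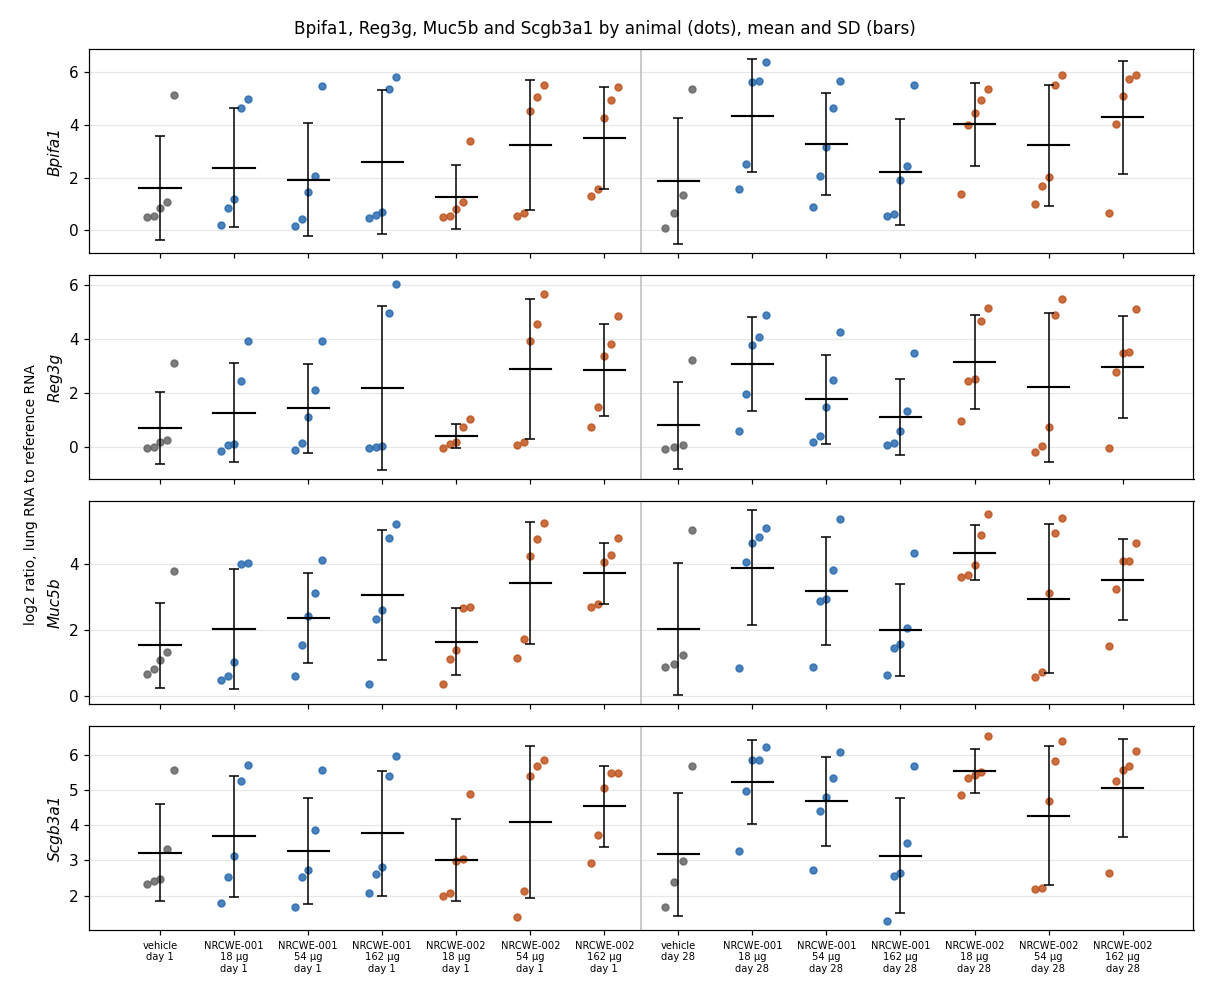
Log2 ratio of lung RNA to reference RNA for Bpifa1, Reg3g, Muc5b and Scgb3a1 (vertical axes) in the 14 groups (horizontal axis, day 1 left and day 28 right of the grey line). Dots are mice (grey vehicle, blue NRCWE-001, orange NRCWE-002), and black bars are the group mean and SD; in most groups low and high mice stand side by side, as in vehicle on day 1, where Bpifa1 spans 0.52 to 5.13.

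Within groups, the SD of the log2 ratio was 2.12 for Bpifa1, 1.93 for Reg3g, 1.58 for Muc5b and 1.53 for Scgb3a1, beside a median of 0.17 over all genes. From the widest gene downwards these were ranks 3, 6, 13 and 15 of 17628. In the log2 ratios that the authors deposited, the same 4 genes had SDs of 2.09, 2.04, 1.63 and 1.42 and ranks 4, 6, 12 and 22. The other members varied less: Scgb1a1 had an SD of 0.56 (rank 286), Muc4 0.51 (rank 398), Cyp2f2 0.39 (rank 1015), Muc1 0.31 (rank 2245) and Muc5ac 0.25 (rank 4303). The gel-forming mucins Muc5b and Muc5ac thus differed in within-group SD, but that of Muc5ac is for the median of 2 probes that disagreed. Its brighter probe had an SD of 0.472 and its dimmer probe 0.116.

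Dimness bore on these ratios. The reference channel was well above background for Reg3g on 21 of 69 arrays, for Bpifa1 on 35 and for Muc5b on 45. The lung channel was well above background on 57 arrays for Reg3g and on all 69 for Bpifa1, Muc5b and Scgb3a1. An offset of 50 was added to both channels before logs were taken, which pulls the ratios of dim spots towards 0.

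**Figure D2:**
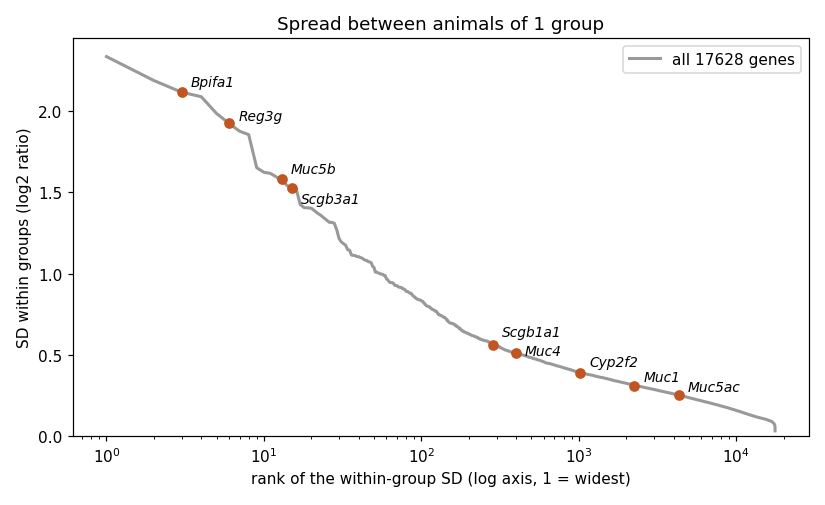
Within-group SD of the log2 ratio (vertical axis) against its rank among all 17628 genes (horizontal log axis, 1 is the widest); the grey line is all genes and the orange dots are the 9 members. Bpifa1, Reg3g, Muc5b and Scgb3a1 sit at ranks 3 to 15, and the other 5 members at ranks 286 to 4303.

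The 4 wide genes varied together from mouse to mouse. Over the 69 arrays, Pearson's r for their 6 pairs was 0.882 to 0.942 and Spearman's rho 0.858 to 0.92. After group means and slide means were removed, r was 0.855 to 0.947, and without the 2 arrays farthest from the median it was 0.884 to 0.943. The arrays share a reference RNA, and groups of them share a slide. In 9 of the 14 groups the same mouse was highest for all 4 genes. Scgb1a1, by contrast, had r of 0.183 with Scgb3a1, 0.096 with Bpifa1, 0.123 with Muc5b and 0.047 with Reg3g. With group and slide means removed, these were 0.508, 0.42, 0.503 and 0.415.

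Of these 4 genes, the RefSeq promoter table (build GRCm38.p6) held Scgb3a1, Bpifa1 and Reg3g, which are shown because they moved together. Each line gives the 250 bases before the transcription start, 5′ to 3′ on the strand of the gene. Capitals mark matches on either strand to TGTTTAC (FOXA), TTGCNNAA (C/EBP) or TTCNNNGAA (STAT). They also mark matches to TATAAA, the core of the box that places the start of transcription in many genes.
Bpifa1, chr2:154142630-154142879, plus strand: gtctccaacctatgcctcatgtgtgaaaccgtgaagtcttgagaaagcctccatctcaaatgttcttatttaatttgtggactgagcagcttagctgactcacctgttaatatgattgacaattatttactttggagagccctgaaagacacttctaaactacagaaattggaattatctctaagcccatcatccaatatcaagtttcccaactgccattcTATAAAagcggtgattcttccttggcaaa
Reg3g, chr6:78468875-78469124, minus strand: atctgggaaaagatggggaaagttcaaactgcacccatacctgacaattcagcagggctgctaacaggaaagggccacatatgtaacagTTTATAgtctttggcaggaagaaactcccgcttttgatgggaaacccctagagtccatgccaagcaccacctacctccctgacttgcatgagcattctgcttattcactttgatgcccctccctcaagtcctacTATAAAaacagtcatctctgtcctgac
Scgb3a1, chr11:49663345-49663594, plus strand: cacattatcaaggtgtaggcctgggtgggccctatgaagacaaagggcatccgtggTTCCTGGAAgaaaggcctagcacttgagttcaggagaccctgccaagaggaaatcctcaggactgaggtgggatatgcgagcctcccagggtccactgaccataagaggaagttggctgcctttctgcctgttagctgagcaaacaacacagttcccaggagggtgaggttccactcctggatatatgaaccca

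The letters TATAAA stood from -29 to -24 in the promoter of Bpifa1 and from -27 to -22 in that of Reg3g, counted back from the transcription start, and again on the other strand of Reg3g from -161 to -156. They were also present in those of Muc1 (-31 to -26) and Muc4 (-36 to -31). Of all 32851 promoters, 12.4% held these letters in their 250 bases. The promoter of Scgb3a1 held the STAT letters as TTCCTGGAA from -194 to -186, which 7.02% of all promoters did. The STAT letters read the same on both strands, so each match was counted once. The FOXA and C/EBP letters, found in 3.17% and 9.56% of all promoters, were in none of the 6 member promoters in the table, those of Scgb3a1, Cyp2f2, Bpifa1, Reg3g, Muc1 and Muc4. A match of letters is a description of the sequence alone.

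Beside the members themselves, Bpifb1, a relative of Bpifa1 secreted by the large airways, was the most alike gene for all 4, with r of 0.961 for Muc5b, 0.958 for Reg3g, 0.932 for Scgb3a1 and 0.927 for Bpifa1. After slide means were removed, these values were 0.947, 0.955, 0.918 and 0.907. Tff2, a trefoil peptide secreted with mucus, had r of 0.934 with Muc5b, 0.923 with Scgb3a1, 0.905 with Reg3g and 0.883 with Bpifa1 (0.927, 0.908, 0.901 and 0.843 after slide means). The remaining genes were Ltf, which encodes lactoferrin, for Muc5b (0.917, and 0.898 after slide means) and Reg3g (0.892 and 0.858), Lypd2 for Scgb3a1 (0.917 and 0.91) and Sult1d1, a sulfotransferase, for Bpifa1 (0.9 and 0.901).

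Marker lists of several tissues moved with the same 4 genes. The closest was the list of glands and upper airway, whose 5 genes beside the members were Bpifb1, Ltf, Dmbt1, Lyz1 and Pip. Their mean ran from 1.51 to 3.23 and had r of 0.95 with Muc5b, 0.94 with Reg3g, 0.91 with Scgb3a1 and 0.89 with Bpifa1 (0.86 to 0.95 after group and slide means were removed). Bpifb1 and Ltf are also among the most alike genes named above, so these values repeat those correlations in part. The mean log2 ratio of 5 heart muscle genes (Myh6, Actc1, Myl7, Tnnt2 and Tnni3, all 5 tested) ran from 0.21 to 4.29 over the 69 arrays. It had r of 0.84 with Bpifa1 and 0.83 with Muc5b (rho 0.79 for both), and 0.85 for both after group and slide means were removed. In the vehicle groups it was 3.57 in the mouse of day 1 that was high for Bpifa1 and 0.55 to 0.89 in the others, and 3.22 in that of day 28 and 0.62 to 0.84 in the others. In 8 of the 9 groups where 1 mouse led all 4 genes, that mouse was also highest for the heart muscle list. Large pulmonary veins of the mouse carry heart muscle. Skeletal muscle genes outside this list were also among the widest within groups, such as Acta1 (rank 4), Tnnc2 (7), Tnnt3 (14) and Myh2 (17). So was Cfd (5), a gene of fat cells. The tissue source of all these genes was not tested.

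A cartilage list of 6 genes, which marks large airways, ran from 0.04 to 0.51 and had r of 0.70 with Bpifa1 and 0.72 with Muc5b. The 10 ciliated cell genes ran from 1.55 to 2.75, with r of 0.65 and 0.70. The 5 goblet cell genes that are not members ran from 0.13 to 3.49, with r of 0.71 and 0.83. The 7 alveolar type 2 genes ran from 3.63 to 4.58 with r of -0.05 and -0.04, but of -0.50 and -0.42 after group and slide means were removed. The 4 basal cell genes ran from -0.79 to 2.96 with r of -0.08 and -0.07, and of -0.05 and -0.03 after group and slide means. The part of tissue content in the spread of the 4 genes was not tested.

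**Figure D3:**
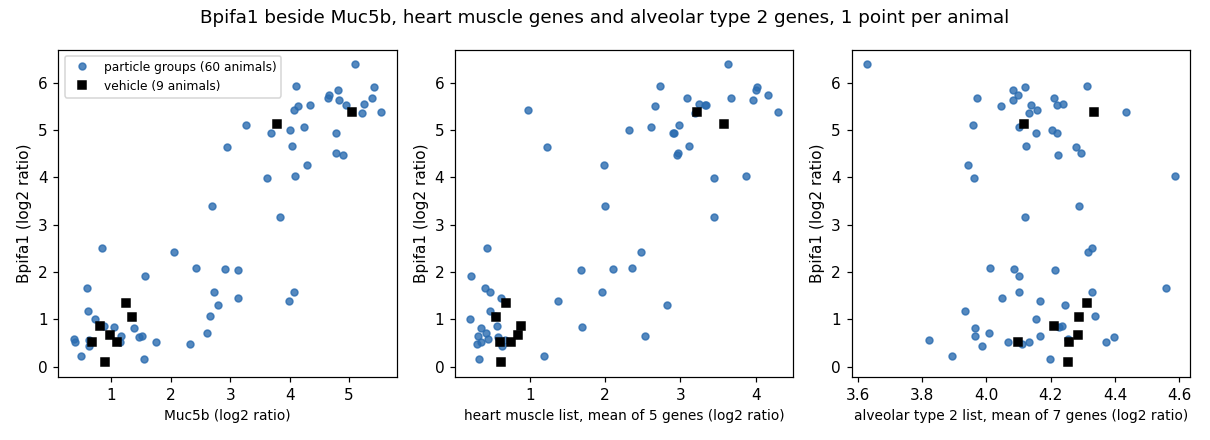
Log2 ratio of Bpifa1 (vertical axes) against Muc5b, the mean of 5 heart muscle genes and the mean of 7 alveolar type 2 genes (horizontal axes, log2 ratios); each point is 1 of 69 mice, black squares vehicle and blue dots particle groups. Bpifa1 is high where Muc5b (r = 0.886) and the heart muscle mean (r = 0.84) are high, while r with the alveolar type 2 mean is -0.05 in these plotted values and -0.50 after group and slide means are removed.

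The 2 club cell members, Scgb1a1 and Cyp2f2, varied less between mice than the 4 wide genes. This did not hold for every club cell gene, since Cyp2a5 had a within-group SD of 1.17 (rank 33). The mean of the 5 club cell markers that are not members had r of 0.48 with both Bpifa1 and Muc5b. After group and slide means were removed, these were 0.53 and 0.63. Scgb1a1 encodes the main secreted protein of club cells, and Cyp2f2 a club cell cytochrome P450 that activates naphthalene. Scgb1a1 lay at 5.88, 6.66, 6.99, 7.26 and 7.27 in the vehicle mice of day 1 and at 6.57, 6.96, 7.36 and 7.61 in those of day 28. The lowest of the day 1 mice was the 1 that was highest for Bpifa1, while on day 28 the mouse highest for Bpifa1 lay at 7.36, within the range of the others. Cyp2f2 lay at 6.10, 6.41, 6.53, 6.58 and 6.65 on day 1 and at 6.32, 6.43, 6.62 and 6.63 on day 28. Slides held 77.4% of the within-group variance of Scgb1a1 and 70.7% of that of Cyp2f2, against 29.8% for Bpifa1 and 29.9% for Muc5b. Part of each share falls to slides by chance. With slide in the model the SD went from 0.56 to 0.25 for Scgb1a1 and from 0.39 to 0.23 for Cyp2f2. For Bpifa1 it went from 2.12 to 2.03 and for Muc5b from 1.58 to 1.53. The raw red intensity was 228880 to 487140 for Scgb1a1 and 50078 to 190060 for Cyp2f2, and both channels were well above background on all 69 arrays. These are spans of 2.13-fold and 3.80-fold, narrower than the 5.09-fold and 5.20-fold spans of their ratios. The spread of these ratios thus does not come from the red channel alone. Between them, the 2 genes had r of 0.47, and 0.823 after slide means were removed.

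The gene most like Cyp2f2 was Cbr2, a carbonyl reductase abundant in club cells, with r of 0.806, followed by Hba-a1 (0.804) and Cbarp (0.783). After slide means were removed, r was 0.909 for Cbr2, 0.545 for Hba-a1 and 0.721 for Cbarp. Scgb1a1 was most like Plac9a (0.831), Cbr2 (0.761) and Ager (0.743), a gene of alveolar type 1 cells. With slide means removed these were 0.55, 0.807 and 0.605.

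Between days, over all groups, Scgb1a1 and Cyp2f2 were the 2 of 9 members called, and 10.6% of all genes were called in this comparison. Scgb1a1 was higher on day 28 (mean 6.86 over 34 mice) than on day 1 (6.42 over 35 mice), by 0.44 ± 0.13 (SE) on the log2 scale with a limma adjusted p of 0.0225. Cyp2f2 was higher by 0.31 ± 0.09 (6.63 against 6.32; limma adjusted p = 0.0225). Neither was called once slide was in the limma model, where Scgb1a1 differed by 0.08 (adjusted p = 0.917) and Cyp2f2 by 0.10 (adjusted p = 0.875). On the 4 slides that held both days, the difference ran from -0.05 to 0.28 for Scgb1a1 and from 0.04 to 0.34 for Cyp2f2. Only on these 4 slides were both days measured side by side. Scgb3a1 differed by 0.79 ± 0.36 and was not called (adjusted p = 0.144), and the sign turned to -0.66 once slide was added. The vehicle mice by themselves differed by 0.31 for Scgb1a1 (95% interval -0.43 to 1.05) and by 0.05 for Cyp2f2 (-0.47 to 0.56), with 0% of all genes called. With slide in the model these differences were 0.00 and -0.13.

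At 162 µg on day 1 both club cell members lay below vehicle, and neither was called. Scgb1a1 was 5.64, 6.10, 6.44, 6.70 and 6.88 after NRCWE-001 and 5.73, 5.77, 5.87, 6.25 and 6.69 after NRCWE-002. The groups overlapped the vehicle range of 5.88 to 7.27. The differences were -0.46 ± 0.35 (limma adjusted p = 0.963) and -0.75 ± 0.35 (adjusted p = 0.488). With slide in the model they were -0.33 and -0.32, and the latter was -0.17 with scan day. Cyp2f2 differed by -0.36 ± 0.24 after NRCWE-001 (adjusted p = 0.911) and by -0.29 ± 0.24 after NRCWE-002 (adjusted p = 0.849). With slide in the model the differences of Cyp2f2 were -0.39 and -0.43 and were not called (limma adjusted p = 0.136 and 0.19). Of 18 other club cell enzymes and membrane genes, 0 were called by limma at this dose after either particle, with a median difference of -0.25 and -0.19 beside 0.01 for all genes. With slide in the model, 3 of them were called lower after NRCWE-001, where 772 of all 17628 genes were called, and 0 after NRCWE-002, where 345 were.

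**Figure D4:**
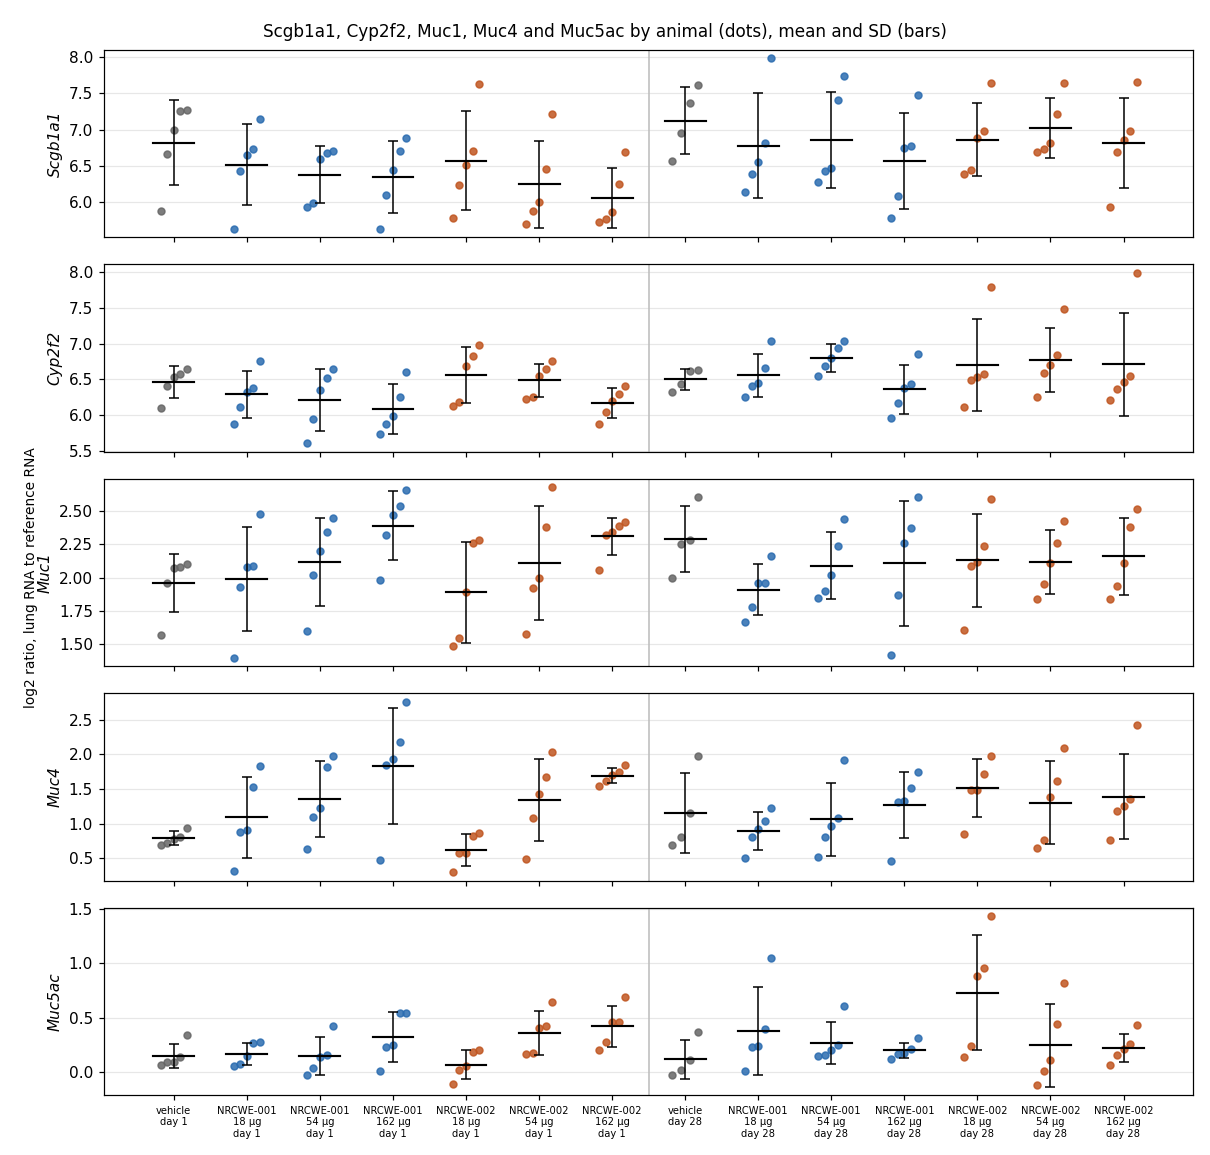
Log2 ratio of lung RNA to reference RNA for Scgb1a1, Cyp2f2, Muc1, Muc4 and Muc5ac (vertical axes, each with its own range) in the 14 groups (horizontal axis, day 1 left and day 28 right of the grey line). Dots are mice (grey vehicle, blue NRCWE-001, orange NRCWE-002), and black bars are the group mean and SD; on day 1 the 5 mice given 162 µg NRCWE-002 lie at 1.55 to 1.84 for Muc4, above the vehicle mice at 0.69 to 0.94.

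Among the comparisons with vehicle, Muc4 at 162 µg on day 1 had the lowest adjusted p of any member in the model without slide. Muc4 encodes a large mucin tethered to the membrane of airway epithelial cells. In the vehicle mice of day 1 its level was 0.69, 0.72, 0.77, 0.80 and 0.94. After 162 µg of NRCWE-002 it was 1.55, 1.62, 1.70, 1.74 and 1.84, with no overlap with vehicle, and after 162 µg of NRCWE-001 it was 0.47, 1.84, 1.93, 2.18 and 2.76. In the latter group, 4 mice lay above all vehicle mice and 1, replicate 5, lay below them. The groups of 162 µg NRCWE-002 and vehicle did not overlap for 4.9% of all genes, and of the 9 members this held for Muc4 alone. For NRCWE-001 it held for 3.4% of all genes and for 0 of the 9 members.

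The difference in Muc4 from vehicle was 1.05 ± 0.31 after NRCWE-001 (2.07-fold, 95% interval 0.42 to 1.67, limma adjusted p = 0.134). It was 0.90 ± 0.31 after NRCWE-002 (1.87-fold, 0.28 to 1.53, adjusted p = 0.221). Neither was called, and at this dose 0 of 9 members were called by limma, where 0.579% of all genes were called for NRCWE-001 and 0.596% for NRCWE-002. At an unadjusted p under 0.05, 2 members passed after NRCWE-001 (Muc1 and Muc4) and 3 after NRCWE-002 (Scgb1a1, Muc5b and Muc4), against 7.07% and 8.94% of all genes.

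The call on Muc4 changed with how slide or scan day was handled and with 1 mouse left out. Its size changed with the scanner software's processed signals, where background correction and normalisation both differed from the main setting. From the scanner software's processed signals the NRCWE-001 difference was 0.43 (limma adjusted p = 1.0) and that of NRCWE-002 1.3 (adjusted p = 0.625). With slide as a random block, the differences were 0.91 and 0.97 and both were called (limma adjusted p = 0.0239 and 0.033), while calls over all genes went from 102 to 584 and from 105 to 511. With scan day as a block both differences were called too, and calls over all genes went to 755 and 787. With slide as a fixed block the differences were 0.83 and 1.02 and missed the threshold (adjusted p = 0.0539 and 0.0582). Leaving out replicate 5 of the NRCWE-001 group gave 1.39 and a call (adjusted p = 0.00468). On the 3 slides that held 1 array of each, NRCWE-001 exceeded vehicle by 0.89 to 1.46, and on the 2 such slides for NRCWE-002 by 0.78 and 0.92. The 3 probes differed from vehicle by 0.63, 1.05 and 1.17 after NRCWE-001 and by 0.68, 0.90 and 1.20 after NRCWE-002. The reference channel was well above background on 63, 24 and 14 of the 69 arrays for those probes, in that order.

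At the lower doses on day 1, Muc4 differed from vehicle by 0.56 ± 0.31 after 54 µg of either particle, with 4 of 5 mice above all vehicle mice in both groups (limma adjusted p = 0.999 and 0.892). Once slide was added these were 0.70 and 0.87. In the 4 comparisons of 18 and 54 µg on day 1, 0 of 9 members were called by limma and 0 passed an unadjusted p under 0.05, against 2.97% to 5.83% of all genes. Of all genes, 0.0624% were called after 54 µg NRCWE-002 and 0% in the other 3. After 18 µg the mice lay at 0.32 to 1.83 for NRCWE-001 and at 0.30 to 0.86 for NRCWE-002. On day 28 the vehicle mice lay at 0.69, 0.81, 1.15 and 1.97. The 162 µg groups of day 28 overlapped them and differed by 0.11 ± 0.33 and 0.24 ± 0.33 (0.46 and 0.22 with slide in the model). The difference at 162 µg was smaller on day 28 than on day 1 by 0.93 ± 0.46 for NRCWE-001 and by 0.66 ± 0.46 for NRCWE-002, and neither change was called (limma adjusted p = 1.0 and 0.876; 0% of all genes were called in both). Once slide was added these changes were -0.37 and -0.81. At an unadjusted p under 0.05, 2 members passed for NRCWE-001 (Muc1 and Muc4) and 0 for NRCWE-002, against 4.35% and 6.7% of all genes. Marker lists were also measured in these groups of day 1. Of the 5 neutrophil genes, 2 were called higher after 162 µg of NRCWE-001 (Cxcr2 and Csf3r) and 0 after that of NRCWE-002. Of the 5 heart muscle genes 0 were called after either. The shares of all genes called were 0.579% and 0.596%. Pdpn, a gene of alveolar type 1 cells, was called higher after both particles, by 0.68 and 0.58 (limma adjusted p = 0.00668 and 0.0304). The neutrophil genes had a median mean level of 2.66 (range 2.27 to 2.86) in vehicle, 3.44 (2.44 to 3.89) after NRCWE-001 and 3.09 (2.60 to 3.44) after NRCWE-002. The heart muscle list had a median of 0.75 (0.55 to 3.57) in vehicle, 0.44 (0.30 to 4.00) after NRCWE-001 and 1.99 (0.98 to 2.90) after NRCWE-002. The gland list had medians of 1.68, 1.98 and 2.63 in these groups. The vehicle mouse of day 1 that was highest for heart muscle and Bpifa1 had a Muc4 level of 0.77, within the range of the others. On day 28 the vehicle mouse highest for both had a Muc4 level of 1.97, above the other vehicle mice of that day. Over the 69 arrays, Muc4 had r of 0.53 with the heart muscle list, 0.72 with the gland list and 0.49 with the neutrophil list. After group and slide means were removed, these were 0.67, 0.81 and 0.08. The part of these lists in the Muc4 difference was not tested.

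Muc1, another tethered mucin, moved with Muc4 over the 69 arrays (r = 0.789, and 0.588 after group and slide means were removed). It lay at 1.57, 1.96, 2.07, 2.08 and 2.10 in the vehicle mice of day 1. After 162 µg it lay at 1.98, 2.32, 2.47, 2.54 and 2.66 for NRCWE-001 and at 2.06, 2.32, 2.34, 2.39 and 2.42 for NRCWE-002. In each group 4 of 5 mice exceeded all vehicle mice. The differences were 0.43 ± 0.19 (limma adjusted p = 0.578) and 0.35 ± 0.19 (adjusted p = 0.634), and on the 5 slides that held 1 array of a 162 µg group and 1 of vehicle they ran from 0.25 to 0.75. With slide as a fixed block, the NRCWE-001 difference was 0.37 and was called (adjusted p = 0.0439), while that of NRCWE-002 was 0.38 and was not (adjusted p = 0.109). The NRCWE-002 difference was called with scan day as a block (limma adjusted p = 0.0412), where 787 of all genes were called. From the processed signals the NRCWE-001 difference was 0.10. The genes most like Muc1 were Prrg3 (r = 0.846), Prr15l (0.829) and Trf (0.82), and those most like Muc4 were Tmc4 (0.857), Acsm1 (0.84) and Clip4 (0.837). After slide means were removed, r fell to between 0.57 and 0.606 for the former and to between 0.794 and 0.82 for the latter.

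For the 4 wide genes the same comparison gave wide intervals. At 162 µg on day 1, Muc5b was 0.37, 2.33, 2.61, 4.81 and 5.22 after NRCWE-001 and 2.72, 2.79, 4.07, 4.28 and 4.79 after NRCWE-002, and the vehicle mice reached 3.79. The difference after NRCWE-002 was 2.18 ± 0.97 with an interval of 0.24 to 4.13 (limma adjusted p = 0.457). It was 2.75 without the high vehicle mouse, replicate 5, and 1.33 with slide in the model, and on the 2 slides holding both groups it was -1.01 and 1.38. For Bpifa1 the differences were 0.98 ± 1.30 (interval -1.64 to 3.59) and 1.88 ± 1.30 (-0.73 to 4.49). For Reg3g they were 1.5 ± 1.19 and 2.16 ± 1.19, and for Scgb3a1 0.55 ± 0.94 and 1.32 ± 0.94. In the model with slide, Bpifa1 differed by 0.28 and 0.27, Reg3g by 0.71 and 0.66, and Scgb3a1 by 0.36 and 0.12. None of these differences was called, and the intervals of Bpifa1 hold values on both sides of 0. The median difference of the 9 members was 0.55 after NRCWE-001 and 0.90 after NRCWE-002, beside 0.01 over all genes, and 4 of those 9 are the genes that vary together.

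**Figure D5:**
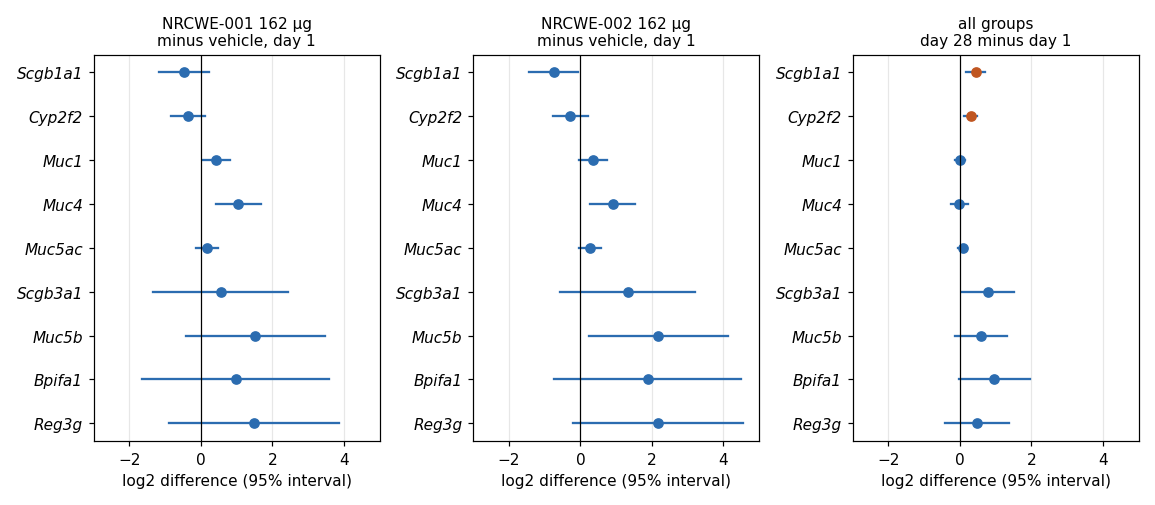
Log2 difference (horizontal axes) with its 95% interval for the 9 members (vertical axes) at 162 µg of either particle against vehicle on day 1, and for all groups on day 28 against day 1. Orange marks the 2 differences called by limma, Scgb1a1 and Cyp2f2 between days; the interval of Bpifa1 after NRCWE-002 spans -0.73 to 4.49, and those of Muc4 lie above 0 without reaching the adjusted threshold.

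On day 28, the group means of Scgb3a1 and Muc5b were highest at the lowest dose of each particle. After 18 µg, Scgb3a1 lay at 3.27, 4.97, 5.87, 5.87 and 6.23 for NRCWE-001 and at 4.86, 5.36, 5.43, 5.52 and 6.56 for NRCWE-002. The vehicle mice lay at 1.68, 2.39 and 2.97, with the fourth at 5.69, so the groups overlapped through 1 vehicle mouse. The differences were 2.06 ± 1.00 (limma adjusted p = 0.59) and 2.36 ± 1.00 (adjusted p = 0.792). From the scanner software's processed signals they were 0.92 and 0.77, and with slide in the model 2.19 and 2.04. Muc5b after 18 µg of NRCWE-002 differed by 2.31 ± 1.03 (adjusted p = 0.813), and by 1.81 with slide in the model. None of the differences with slide was called. Marker lists were higher in median in the same groups. The heart muscle list had a median of 0.76 in vehicle (range 0.62 to 3.22), 3.63 after NRCWE-001 (0.43 to 3.96) and 2.96 after NRCWE-002 (1.37 to 4.29). The goblet list had medians of 0.30, 2.30 and 2.62 and the gland list of 1.74, 2.51 and 2.70, in the same order, and the ranges overlapped vehicle in each. Their part in these differences was not tested. After 162 µg of NRCWE-001 on day 28, Scgb3a1 and Muc5b differed from vehicle by -0.05 ± 1.00 and -0.03 ± 1.03. In the 6 dose comparisons of day 28, 0 of 9 members were called by limma and at most 0.193% of all genes were, in the comparison of 18 µg NRCWE-001. At 162 µg, 0.0454% of genes were called after NRCWE-001 and 0.00567% after NRCWE-002. At an unadjusted p under 0.05, 1 member passed after 18 µg of NRCWE-001 (Scgb3a1), 3 after 18 µg of NRCWE-002 (Scgb3a1, Muc5b and Muc5ac) and 0 in the other 4, against 8.16%, 6.08% and 2.9% to 8.63% of all genes.

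Muc5ac encodes the gel-forming mucin that goblet cells make when they expand. Over the 69 mice its level ran from -0.12 to 1.43 with a median of 0.20 and quartiles of 0.11 and 0.40. The vehicle mice lay at 0.07, 0.09, 0.09, 0.14 and 0.34 on day 1 and at -0.02, 0.02, 0.11 and 0.37 on day 28. The highest group was 18 µg NRCWE-002 on day 28, at 0.14, 0.24, 0.88, 0.96 and 1.43, where 3 mice exceeded all vehicle mice. The difference was 0.61 ± 0.17 with an unadjusted limma p of 0.00052 and an adjusted p of 0.54. Without replicate 3 of that group it was 0.76 and was called (adjusted p = 0.0429), and with the brighter of its 2 probes alone it was 1.32 (adjusted p = 0.46). The 2 probes disagreed: within groups the brighter had an SD of 0.472 and the dimmer 0.116, and the dimmer was well above background in the lung channel on 55 arrays. Muc5ac had r of 0.882 with Agr2, 0.849 with Fcgbp and 0.837 with Clca1, 3 genes of goblet cells and their secretion, and 0.852, 0.832 and 0.839 after slide means were removed. With Muc5b it had r of 0.728.

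The particles, which differ in surface charge, were compared over the 3 doses. On day 1, 0 of 9 members were called by limma for NRCWE-002 against NRCWE-001, with 0.125% of all genes called, and on day 28, 0 of 9 members with 4.75% of all genes called. At an unadjusted p under 0.05, 0 members passed on either day, against 7.32% and 22.2% of all genes. The share of day 28 hung on the setting. The 837 genes called became 4 with slide as a fixed block, 19 with slide as a random block and 5 with scan day. With median centring in place of loess they became 4513, and 0 members were called in any of these settings. On day 1, Muc4 differed by -0.21 ± 0.18 (interval -0.57 to 0.15), Scgb1a1 by -0.12 ± 0.20 (-0.53 to 0.28), Cyp2f2 by 0.21 ± 0.14 (-0.07 to 0.49) and Muc1 by -0.06 ± 0.11 (-0.29 to 0.16). On day 28, Muc4 differed by 0.33 ± 0.18 (-0.04 to 0.69), Muc5ac by 0.12 ± 0.09 (-0.06 to 0.30) and Bpifa1 by 0.57 ± 0.75 (-0.94 to 2.08). For Scgb1a1, Cyp2f2, Muc5ac, Muc1 and Muc4 all bounds on both days lay between -0.57 and 0.69, and for Bpifa1, Reg3g, Muc5b and Scgb3a1 the upper bounds were 1.38 to 2.16. With slide in the model the signs of Muc4, Scgb1a1 and Muc1 on day 1 turned (0.16, 0.15 and 0.08), Cyp2f2 was at 0.02, and on day 28 Muc4, Muc5ac and Bpifa1 were at 0.09, 0.17 and -0.06.

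Tests of any dose effect gave 0 of 9 members called by limma for each particle and day, with 0.698% (NRCWE-001) and 0.823% (NRCWE-002) of all genes called on day 1 and 0.477% and 0% on day 28. On day 1, 1 member passed an unadjusted p under 0.05 for NRCWE-001 (Muc4) and 2 for NRCWE-002 (Muc5b and Muc4), and on day 28, 0 and 1 (Muc5ac). The shares of all genes were 7.87% and 7.79% on day 1 and 9.03% and 4.36% on day 28. Among the group means, Muc4 was lowest after 18 µg NRCWE-002 on day 1 (0.62 ± 0.23, SD) and highest after 162 µg NRCWE-001 on day 1 (1.83 ± 0.84). For Bpifa1 the order of means ran from 1.27 ± 1.21 (18 µg NRCWE-002, day 1) to 4.36 ± 2.16 (18 µg NRCWE-001, day 28), and the widest step between neighbours was 0.63. For Reg3g the order ran from 0.41 ± 0.46 (18 µg NRCWE-002, day 1) to 3.15 ± 1.74 (18 µg NRCWE-002, day 28) with a widest step of 0.65, and for Scgb1a1 from 6.06 ± 0.41 (162 µg NRCWE-002, day 1) to 7.12 ± 0.46 (vehicle, day 28) with one of 0.21.

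Other genes of airway secretion were taken from fixed lists. Of 20 secreted products of airway secretory, goblet and gland cells, 1 was called at 162 µg on day 1 after either particle, Lcn2, an iron-binding antibacterial protein that many inflamed cells make. Its mean level was 1.15 in vehicle, 3.91 after NRCWE-001 and 4.17 after NRCWE-002, which is higher by 2.75 ± 0.61 and 3.02 ± 0.61 (limma adjusted p = 0.014 and 0.00716). After 54 µg of NRCWE-002 it was higher by 3.03 ± 0.61 (adjusted p = 0.0136; 0.0624% of all genes were called). The medians of this list were 0.17 and 0.21 at 162 µg, beside 0.01 for all genes. Of 24 tested regulators of secretory cells and mucins, 1 was called at 162 µg on day 1, Creb3l1, a membrane-bound transcription factor, which was higher by 0.37 ± 0.09 after NRCWE-001 and by 0.34 ± 0.09 after NRCWE-002 (adjusted p = 0.023 and 0.0448). The latter was 0.24 with slide in the model and was not called (adjusted p = 0.147). Of 10 ion and water transport genes and of the 3 tested of 10 other mucins, 0 were called by limma in the dose comparisons at 162 µg on day 1.

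Between days, where 10.6% of all genes were called, 4 of the 20 secreted products were higher on day 28, among them Clca1 by 1.58 ± 0.51 and Tff2 by 0.72 ± 0.23 (limma adjusted p = 0.0368 and 0.0348), and 2 were lower, Lcn2 by -0.74 ± 0.23 and Slpi by -0.64 ± 0.18 (adjusted p = 0.0281 and 0.0167). Of the 18 club cell genes, 4 were higher, Ephx1 by 0.41 ± 0.09, Sec14l3 by 0.33 ± 0.09, Aldh1a1 by 0.32 ± 0.08 and Cbr2 by 0.29 ± 0.07. With slide in the model, 0 of the members and of the genes of both lists were called by limma in this comparison, and 17 of all 17628 genes were. In that model Clca1 differed by -0.02, Tff2 by -0.16, Lcn2 by -0.50 and Slpi by -0.18, and among the club cell genes Ephx1 differed by 0.21, Cbr2 by 0.17, Aldh1a1 by 0.16 and Sec14l3 by 0.03.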

How the data were processed

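Lung RNA of 69 mice was measured against a reference RNA on 69 Agilent arrays. The deposited intensity values are scanner output, made by the authors with Agilent Feature Extraction 11.0.1.1 per the file headers. The authors also deposited LOWESS-normalised log2 ratios of the same arrays, which were used as an alternative. Here, median signals were background corrected (normexp, offset 50) and loess normalised in limma 3.58.1 (R 4.3.3), and probes had to be well above background on at least 4 arrays. Of 41174 probes, 27479 (66.7%) matched 1 symbol, and 36452 were kept, matched or not. Of the named genes, 17628 were fitted with 14 group means on all arrays, with Benjamini-Hochberg adjustment and a threshold of 0.05. Intervals are 95%. Scripts were tested on simulated data. The number of arrays limits the precision. The labels tie each array to 1 mouse, and replicates were numbered in order of listing. The members and gene lists were chosen with earlier results of these data known, and the TATAAA letters were added after the results were seen. All members were named, with up to 4 called genes per list and comparison and the 3 most alike genes per member. Alternatives were other background corrections, normalisations, probe summaries and filters, slide or scan day as a block, arrays of 1 day, and leaving out each array.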

Additional observations from a re-analysis of the deposited data

Results flagged for a closer look

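In 14 of 126 combinations of gene and group, 1 mouse stood apart from the rest of its group by Dixon's criterion. Chance gives this in about 1 of 20 groups of normal values. The 126 combinations are not independent, since the same mice recur over genes that vary together, so the 14 cannot be set against that rate. Replicate 5 of the vehicle group on day 1 accounted for 5 of the 14. Its level was 5.13 for Bpifa1 (next mouse 1.06), 3.12 for Reg3g (0.26), 3.79 for Muc5b (1.34) and 0.34 for Muc5ac (0.14), and it was lowest for Muc1 at 1.57 (1.96). Replicate 1 of the vehicle group on day 28 stood apart for Reg3g at 3.24 (0.07) and Muc5b at 5.04 (1.25). Both mice were also highest of their group for the heart muscle genes, and the part of tissue content was not tested.

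Among particle groups, Bpifa1 was 3.39 in replicate 5 of 18 µg NRCWE-002 on day 1 (next 1.07), and Muc1 was 2.06 in replicate 4 of 162 µg NRCWE-002 on day 1 (next 2.32). On day 28, Cyp2f2 was 7.79 in replicate 2 of 18 µg NRCWE-002 (next 6.58) and 7.99 in replicate 2 of 162 µg NRCWE-002 (next 6.55). Scgb3a1 was 2.63 in replicate 3 of 162 µg NRCWE-002 (next 5.27), Muc5b was 0.84 in replicate 2 of 18 µg NRCWE-001 (next 4.07), and Muc5ac was 0.61 in replicate 2 of 54 µg NRCWE-001 (next 0.25).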

How the results depend on the processing

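Across 22 comparisons and the settings other than leaving out a mouse, 204 of 216 counts of called members stayed within 1.5 times the reported one, as did 365 of 368 counts with 1 mouse left out. The reported count was 0 in every comparison except that of all groups between days. For a count of 0 this means only that it stayed at 0, and in several of these comparisons 0% of all genes were called. For 162 µg NRCWE-001 on day 1 the count of 0 became 1 with slide as a fixed block, as a random block, or with scan day as a block, and ran from 0 to 1 with 1 mouse left out (1 without replicate 5 of that group). Calls over all genes went from 102 to 772, 584 and 755 under these 3 blocks. For 162 µg NRCWE-002 on day 1 it became 1 with slide as a random block and 3 with scan day as a block, where calls over all genes went from 105 to 511 and 787. The dose effect of NRCWE-001 on day 1 gave 1 with slide as a fixed or random block (all genes 123, then 1308 and 1005) and 0 to 1 with 1 mouse left out (1 without the same replicate 5). That of NRCWE-002 on day 1 gave 1 with slide as a random block (all genes 145, then 502). For 18 µg NRCWE-002 on day 28 the count ran from 0 to 1 with 1 mouse left out (1 without replicate 3 of that group). Between days, the count of 2 became 0 with median centring, with slide as a fixed or random block, and with scan day as a block (all genes 1870, then 770, 17, 438 and 1406). The cause was not tested. No paired analysis was possible because the labels give no replicate numbers that tie mice of different groups together, and shared slides were used as blocks instead. Dim reference spots limit the ratios of Reg3g, Bpifa1, Muc5b and Muc4.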
